A study of Mus musculus with 8 samples.

Results

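The lysosomal cathepsins and cystatins are a set of 10 genes: 7 cathepsins (Ctsa, Ctsb, Ctsd, Ctsh, Ctsl, Ctss and Ctsz), the protease legumain (Lgmn) and the inhibitors cystatin C (Cst3) and stefin B (Cstb). They were taken by symbol from a deposited table of 23084 genes, and all 10 are listed there once. RNA was sequenced from CD11b+Ly6C+ (monocytic) and CD11b+Ly6G+ (granulocytic) cells sorted from spleens of C57BL/6 mice aged 6 to 8 weeks, either wt or LmnaMyeKO. In LmnaMyeKO mice a floxed Lmna gene, which encodes lamin A/C, is deleted by Cre expressed from the Lyz2 locus (LysM-Cre), which is active across myeloid cells and not in 1 subset alone. The 8 samples form 4 groups of 2, and titles were used to assign subsets, as the marker label is CD11b+Ly6C+ throughout. The labels state neither the sex of the mice nor whether they bore tumors, and do not say whether wt mice carried Cre or floxed alleles.

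The table is named for the comparison of wt with lamin A/C-deficient cells, both with a prefix HC that the sample titles do not explain. Analysed here was its 1 level per gene, the mean normalized signal, which is an average by the authors over samples that are not stated. Values of single samples and of single groups were not analysed here, so the levels below describe the sorted cells as pooled by the authors. They carry no spread between replicates, and no difference between genotypes or subsets was tested. Nor can sequencing depth be read from the table.

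Cathepsins are proteases of the endosome and lysosome that are made as inactive precursors and activated in acid compartments. They differ in chemistry: cathepsin D cuts with a pair of aspartates, cathepsin A with a serine, and cathepsins B, H, L, S and Z with a cysteine, as does the unrelated legumain. Cystatins bind the active site of papain-like cysteine cathepsins and block it. In phagocytes these enzymes degrade engulfed material, and cathepsins S and L also trim the invariant chain of MHC class II.

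Markers of several cell types were among the genes with a high pooled signal. Whether their transcripts came from the sorted cells themselves or from other cells in the sort was not tested. Levels are compared between genes per length, as mean normalized signal per kb of annotated exons (signal per kb). All 7 mature neutrophil markers examined were among the top 10% of genes by signal per kb, with values from 8337 for Ly6g, the antigen used to sort the granulocytic subset, to 1389954 for S100a9, a calcium-binding protein of neutrophils. S100a8 and Retnlg, also of this list, had 595562 and 163496 signal per kb. Itgam, which encodes CD11b and so is shared by both sorted subsets, had 10760.3. The other 6 monocyte markers had from 157 (Cx3cr1) to 5260 signal per kb (Ly6c2), and Ly6c2 and Csf1r were in the top 10%. All 9 tissue macrophage markers (603 to 12182 signal per kb, led by Hmox1, C1qb and C1qa) and the 4 B-cell markers examined (516 to 4065, led by Cd79a, Cd79b and Ms4a1) were in the top 10%. Of the 6 dendritic cell markers 1 was (Itgax, at 542 signal per kb, ahead of Cd209a and Clec9a at 43.6 and 26.7). Among the 7 T and NK cell markers it was Nkg7, at 519, ahead of Cd3d and Cd4 at 269 and 188. The 3 promyelocyte markers Elane, Mpo and Prtn3 ran from 1045 to 1720 signal per kb, and the highest erythroid and platelet genes, Alas2, Ppbp and Pf4, from 120 down to 54.4. The part of each cell type in the levels of the cathepsins and cystatins was not tested. The targeted gene Lmna had a mean normalized signal of 79.5, or 13.6 signal per kb, and Lmnb1, which encodes lamin B1, had 1589 signal per kb. Neither mean shows whether Lmna was lost, since both genotypes may enter it.

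Most of the 10 genes were at high levels. Per kb of exons Ctsd was the highest and Ctsl the lowest, 6.05 times below Cstb. The head and the gap depend on the length: per kb of coding length Ctsb was above Ctsd, and Ctsl was 1.92 times below Cstb. Their median was 2946 signal per kb, against 18.8 over the 23004 genes with an annotated length. Only 14286 of those 23004 had a mean normalized signal of at least 10, and the weaker ones lower that median. Of the 10 genes, 9 were in the top 10% by signal per kb, which holds 2300 genes. Mean normalized signal ran from 650 for Cstb to 42360 for Ctsd, and together the 10 genes took 0.502% of the summed signal of the table. Ctsd and Ctsb alone accounted for 65.5% of the signal of the set.

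**Figure D1:**
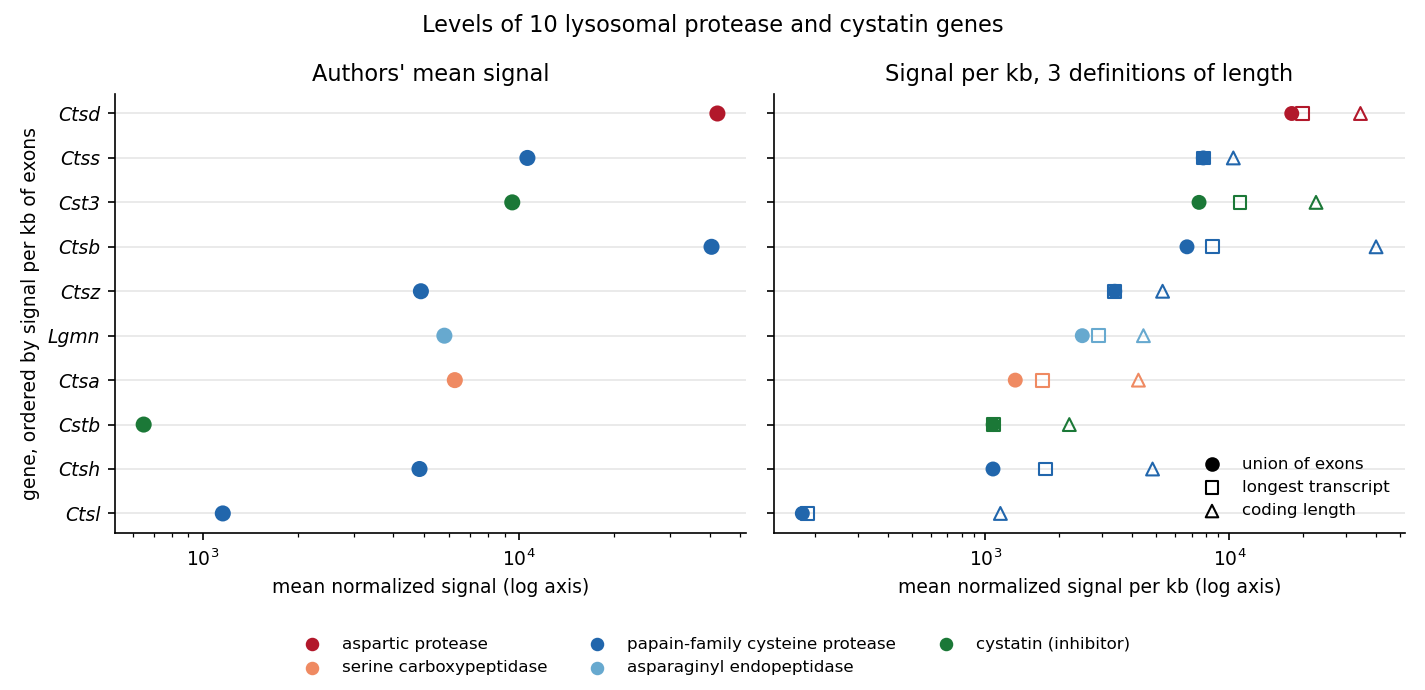
Mean normalized signal (left) and signal per kb (right) of the 10 genes on log axes, 1 point per gene and length definition, coloured by enzyme class. Circles divide by all annotated exons, squares by the longest transcript and triangles by the coding length. Ctsl lies lowest on the right by every definition, while Ctsb moves from place 4 to place 1 with coding length.

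Ctsd (ENSMUSG00000007891), which encodes the aspartic protease cathepsin D, is on chromosome 7 of mm10, minus strand, 142375911 to 142388038. Its mean normalized signal was 42360, rank 48 of all genes. With 2351 bp of annotated exons this is 18018 signal per kb, rank 52 of the genes with a length. It made up 36.3% of the summed signal per kb of the 10 genes and stood 2.30 times above the next gene, Ctss. With the coding length as divisor its share was 26.6%, and Ctsb stood 1.16 times above it. Of the distinct stretches of 50 bases in its transcripts, 32.4% also occur in Gm49369, a gene annotated on the same strand from 142371096 to 142382667. The 2 genes overlap, and Gm49369 is listed with a mean normalized signal of 95.7. How the authors' counting divided reads between them is uncertain.

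Ctsa (ENSMUSG00000017760) encodes cathepsin A, a serine carboxypeptidase that also protects beta-galactosidase and neuraminidase in the lysosome. Its position is chromosome 2, plus strand, 164832873 to 164841032. Its mean normalized signal of 6261 was the fifth of the set. Divided by its 4715 bp of exons, annotated over 16 transcripts, it came to 1328 signal per kb, and 3.72% of genes were above it. Per kb of exons Ctsd was 13.6 times as high as Ctsa, and per kb of coding length 8.12 times.

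The papain-family cathepsins spread over the widest range of the set. Ctss (ENSMUSG00000038642), whose product is known for its role in antigen presentation, had a mean normalized signal of 10622 and 7822 signal per kb. Ctsb (ENSMUSG00000021939), a general lysosomal protease, had 40582 in mean normalized signal but 6707 per kb, because its annotated exons cover 6051 bp, of which 16.8% are coding. Only 0.548% of genes ranked above Ctss and 0.678% above Ctsb. Ctsz (ENSMUSG00000016256), a carboxypeptidase also known as cathepsin X, had 4891 in mean normalized signal and 3394 per kb.

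Ctsh (ENSMUSG00000032359), an aminopeptidase, had nearly the same mean normalized signal as Ctsz, 4842, but 1076 signal per kb over 4499 bp of exons in 11 annotated transcripts. Ctsl (ENSMUSG00000021477), which encodes cathepsin L, had a mean normalized signal of 1156 and 178 signal per kb, rank 5089. It was the 1 gene of the set outside the top 10%, with 22.1% of genes above it. Per kb of exons, Ctss was 43.9 times and Ctsb 37.6 times as high as Ctsl, and per kb of coding length 8.998 and 34.6 times. The annotated exons of Ctsl cover 6489 bp, and 15.4% of them are coding. With the coding length as divisor Ctsl rose to 1154 per kb and was still the lowest of the 10. Within these exons lies the processed pseudogene Gm49230 (chromosome 13, 64361343 to 64361737), and 6.46% of the 50-base stretches of Ctsl also occur in other genes.

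Of these 5 genes, 3 are on the plus strand: Ctss (chromosome 3, 95526786 to 95556403), Ctsb (chromosome 14, 63122462 to 63145923) and Ctsh (chromosome 9, 90054152 to 90076089). Ctsz (chromosome 2, 174427493 to 174439039) and Ctsl (chromosome 13, 64359337 to 64370890) are on the minus strand. Ctsk, the cathepsin of bone-resorbing osteoclasts, ends 17423 bp before Ctss with no annotated gene between them. The neighbours were far apart in level, at 116 signal per kb for Ctsk and 7822 for Ctss.

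Lgmn (ENSMUSG00000021190) encodes legumain, which cuts after asparagine and processes several cathepsins to their mature chains. Its position is chromosome 12, minus strand, 102394084 to 102439813. Its mean normalized signal was 5803, and its 2498 signal per kb placed it sixth of the 10, with 1.91% of genes above it.

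The cystatins differed by 6.97 times per kb of exons and by 10.2 times per kb of coding length. Cst3 (ENSMUSG00000027447, chromosome 2, minus strand, 148871722 to 148875692) encodes the secreted inhibitor cystatin C. Its mean normalized signal was 9513 and its signal per kb 7514, at place 3 of the set and 0.961 times that of Ctss. Cstb (ENSMUSG00000005054, chromosome 10, plus strand, 78425669 to 78427622) encodes stefin B, an inhibitor found in the cytosol and nucleus. It had the lowest mean normalized signal of the set, 650, but its exons cover only 603 bp. It therefore came to 1078 signal per kb, and 4.56% of genes were above it. The summed signal per kb of the 5 papain-family cathepsins, 19177, was 2.23 times that of the 2 cystatins, 8592. With the longest transcript this ratio was 1.79, and with the coding length 2.48. By mean normalized signal, not divided by a length, it was 6.11. All these ratios leave out other cathepsins, among them Ctsc at 1389 signal per kb of exons. They also leave out the other cystatins and stefins, which summed to 11056 signal per kb of exons. Both groups are described below.

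By signal per kb the order was Ctsd, Ctss, Cst3, Ctsb, Ctsz, Lgmn, Ctsa, Cstb, Ctsh and Ctsl. Ctss and Cst3 differed by 1.04 times and Cstb and Ctsh by 1.002 times. Neither near tie held per kb of coding length, where Cst3 was 2.18 times as high as Ctss and Ctsh 2.19 times as high as Cstb, and with the longest transcript these ratios were 1.41 and 1.64. Without values per sample, no pair of neighbours in this order can be separated by its spread. Changing the length reversed 4 of the 45 pairs when the longest transcript was used and 7 when the coding length was used. Ctsd, Ctss, Cst3 and Ctsb held the first 4 places by all 3 definitions, Ctsz the fifth and Ctsl the last.

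**Figure D2:**
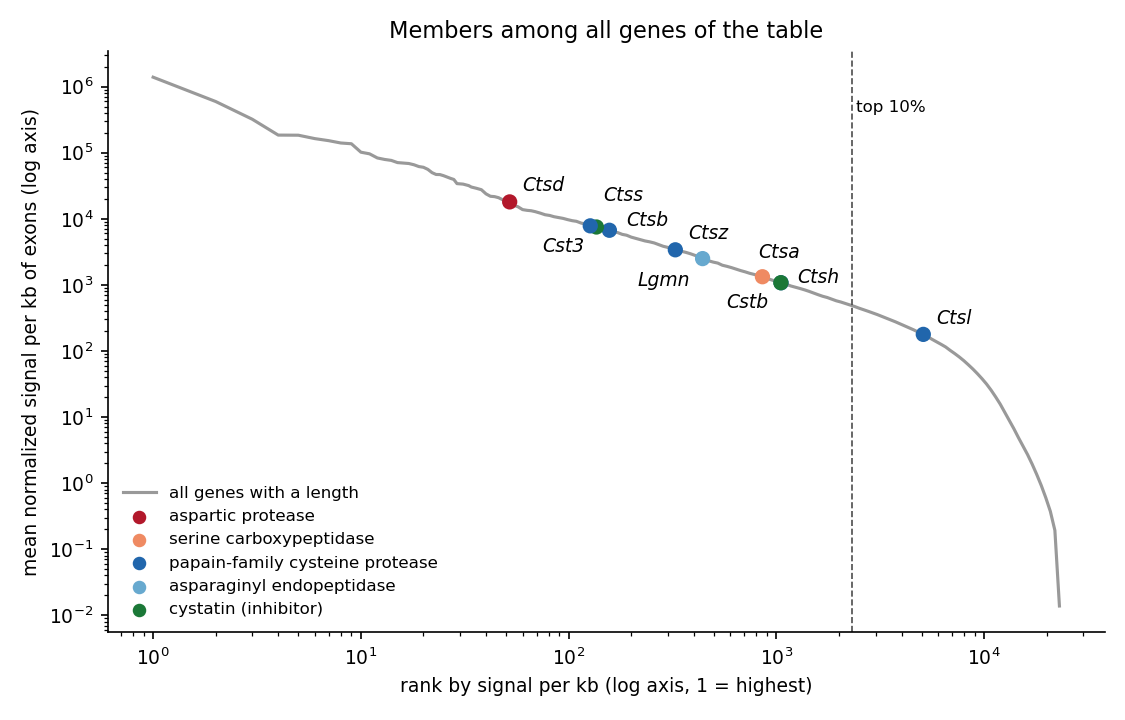
Signal per kb of exons against rank for the 23004 genes with a length (grey line) and the 10 genes (points), both axes logarithmic. Every gene of the set but Ctsl, at rank 5089, lies left of the dashed line that closes the top 10% at rank 2300, and Cstb and Ctsh overlap at ranks 1050 and 1052.

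Of 15 other cathepsin genes listed for comparison, 7 are in the table. The other 8, of the cluster expressed in placenta, were not analysed here. Ctsc, whose product activates the serine proteases of granules, had 1389 signal per kb, and Ctse, an aspartic protease of endosomes, had 1269. Ctsg, a serine protease of azurophil granules, came to 542. These 3 were in the top 10% and lay below Ctsd, Ctss, Ctsb, Ctsz and Lgmn. Ctso had 187 signal per kb, Ctsk 116, Ctsw 103 and Ctsf 25.2, and the last 3 were below Ctsl. Ctsc was above Ctsa, Cstb, Ctsh and Ctsl of the set, and Ctse above Cstb, Ctsh and Ctsl. Ctsg and Ctso were above Ctsl alone. The median of the 7 was 187 signal per kb, against 2946 for the set. The set was chosen with earlier results of these data known, so this gap may reflect the choice, which was not tested.

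Of 16 other cystatin and stefin genes, 10 are in the table and 7 have a mean normalized signal of at least 10. The stefin A genes of mouse, which are known from neutrophils, ranged more widely than the inhibitors of the set. Stfa2l1 had 8353 signal per kb, above Cst3, and Gm5483 had 1090, close to Cstb. Stfa1 had 508, Stfa3 438, Stfa2 296 and BC100530 235 signal per kb. Cst7, which encodes cystatin F, had 134. Stefin A genes share sequence, so their levels are uncertain. Of the 50-base stretches of BC100530, 25.1% also occur in other genes, and of those of Stfa2l1 24.6%. This share was 22.5% for Stfa1, 15.9% for Stfa2 and 11.0% for Gm5483. For Stfa3 and Cst7 the share was 0%, as it was for 6 genes of the set (Ctsb, Ctsh, Ctss, Ctsz, Cst3 and Cstb).

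Among 37 other enzymes and cofactors of the lysosome lumen, 20 were in the top 10% and the median was 510 signal per kb. Psap, the precursor of the saposins and a partner of cathepsin D, had 27556 signal per kb, above Ctsd. Grn, the precursor of granulins that cysteine cathepsins cut, had 3420, beside Ctsz at 3394. Hexa, a subunit of beta-hexosaminidase, had 3209. The set thus had 9 of 10 genes in the top 10%, and the other lumenal proteins 20 of 37. This is a description of genes listed with earlier results of these data known, and not a test.

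**Figure D3:**
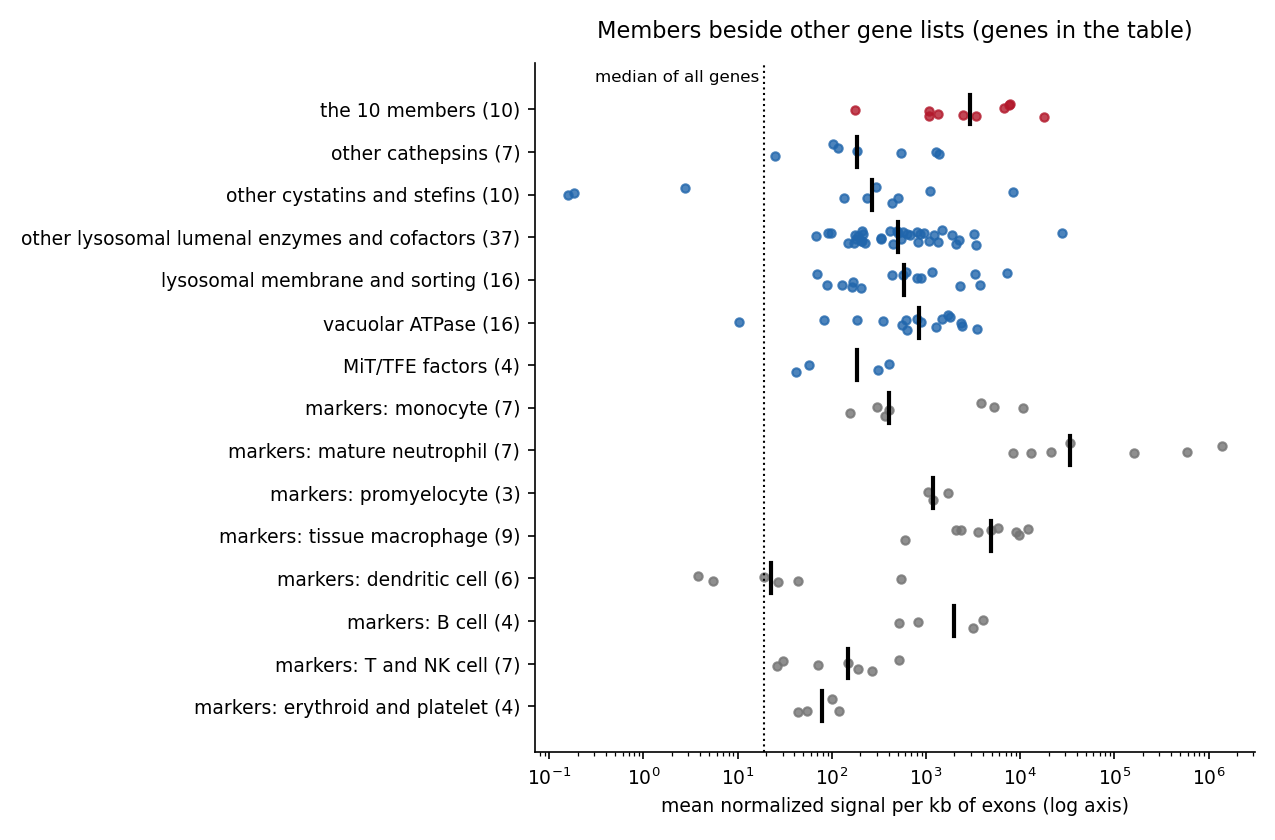
Signal per kb of exons on a log axis for the genes of each list found in the table (number in brackets), 1 point per gene, with a bar at the median and points spread vertically for legibility. The median of the 10 genes, 2946, lies above that of each list drawn in blue. It lies below those of the mature neutrophil and tissue macrophage markers, 34070 and 4893. The set and the lists were chosen with earlier results of these data known.

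Many lysosomal genes are targets of the MiT/TFE factors, which bind E-boxes with the core CACGTG. Tfeb and Tfe3 had 404 and 310 signal per kb, and Mitf had 57.4. All 3 were below 9 of the 10 genes, and Ctsl, at 178, was below Tfeb and Tfe3. Promoter windows of RefSeq (GRCm38.p6, 250 bases before to 50 after a start) were found for 7 genes of the set, in 9 windows. CACGTG, which reads the same on both strands, occurred in windows of 4 of these 7 genes (Ctsa, Ctsd, Ctsl and Lgmn). Of all 27025 genes with a window, 8.09% have it in at least 1 window. The longer TCACGTGA, which contains it, occurred in 2 of the 7 (Ctsa and Ctsd) and in 1.12% of all genes with a window. The stretches below show these matches and their flanks, 5′ to 3′ on the strand of the gene, with CACGTG in capitals. They are matches of letters only, and binding was not measured.
Ctsd: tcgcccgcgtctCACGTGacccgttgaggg
Ctsa: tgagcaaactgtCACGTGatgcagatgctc
Lgmn: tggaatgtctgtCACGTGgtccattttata
Ctsl: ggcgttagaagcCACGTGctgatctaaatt
Starts here are those of the RefSeq windows, which differ from the outer ends of the gene spans given above. Each printed stretch lies inside the span of its gene and not upstream of it. The stretch of Ctsd is at chr7:142387908-142387937, with the first base of the match 98 bases before the start, and another match lies 245 bases before that start. That of Ctsa is at chr2:164833749-164833778, 12 bases before 1 of its 2 starts, and a second match begins at base 6 after it. The stretch of Lgmn is at chr12:102439124-102439153, 49 bases before 1 of its 2 starts, and that of Ctsl at chr13:64370739-64370768, 236 bases before its start. The windows of Ctss, Cst3 and Ctsz, with 7822, 7514 and 3394 signal per kb, did not hold the core. Between them and Ctsd, Lgmn, Ctsa and Ctsl, which do, the levels overlap.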

How the data were processed

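RNA was sequenced from 8 samples. The authors used Cutadapt 1.14 for trimming, STAR 2.5.2b for alignment to mm10, RSEM 1.3.0 with GENCODE M12 for quantification and DESeq2 1.20.0 for normalization and testing. The deposited mean signal per gene is the authors' average of counts divided by size factors, over samples that are not stated. The table's 6 other numeric columns (log2 and signed fold changes, a standard error, a statistic, and raw and adjusted p-values) hold the authors' own comparison of genotypes and were not used. The count test planned for values per sample was therefore not run.

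Signal was divided by exon length, as the union of all annotated exons per gene in GENCODE M21 (same build, later release), which holds 23004 of the 23084 identifiers. The alternatives were the longest transcript, the coding length, a minimum signal of 10, protein-coding genes only, and summing the rows of the 28 repeated symbols, for which the row with the higher signal was used in lists. Stretches of 50 bases were compared over all GENCODE M21 transcripts. The steps for exon length, ranking and motif search were tested on simulated data. The code that gave the shares of 50-base stretches was not itself tested. Python 3.11.15, pandas 2.3.3 and matplotlib 3.10.9 were used.

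The genes of the set and the lists were chosen with earlier results of these data known. Named in the text are the 10 genes, other cathepsins, cystatins and stefins with a signal of at least 10, Lmna, Lmnb1 and the 3 genes of every other list with the highest signal per kb. Cx3cr1, Ly6g, Gm49369 and Gm49230 were named after their values were seen. One gene of the marker lists is not reported here.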

Additional observations from a re-analysis of the deposited data

How the results depend on the processing

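No paired analysis was possible because the level used is 1 average per gene. The planned count tests, with their alternatives and fits without single replicates, could not be run on such averages. The median of the 10 genes was 3155 signal per kb with the longest transcript and 5087 with the coding length, against 2946 with all exons, since both divisors are shorter. The number of genes in the top 10% was 9 with the longest transcript, with a minimum signal of 10, among protein-coding genes and with repeated symbols summed, and 8 with the coding length. No gene of the set has a repeated symbol, so summing left each level as it was.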

Other observations

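The membrane proteins and the proton pump of the lysosome had lower medians than the 10 protease and inhibitor genes (2946 signal per kb). Of 16 membrane and sorting genes 9 were in the top 10%, with a median of 589 signal per kb. Laptm5, a lysosomal membrane protein of blood cells, had 7201, Lamp1, a main protein of the lysosomal membrane, 3738, and Cd68, a macrophage lysosomal glycoprotein, 3305. The median of 16 genes of the vacuolar ATPase, which acidifies the compartment, was 844 signal per kb, and 12 were in the top 10%. Atp6v1g1 had 3517, Atp6ap1 2409 and Atp6v0c 2341 signal per kb. Atp6v0d2, the lowest of the 16 and named after its value was seen, had 10.4. These levels are averages over samples that are not stated and were compared without a test. The set and the lists were chosen with earlier results of these data known.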
